A study of Mus musculus with 6 samples.

Results

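The expression of 10 genes of calcium signalling was followed in quadriceps muscle after deletion of *Dnm1l*, the gene of the mitochondrial fission protein Drp1. These genes encode the 4 subunits of Ca2+/calmodulin-dependent protein kinase II (*Camk2a*, *Camk2b*, *Camk2d* and *Camk2g*), 3 subunits of the phosphatase calcineurin (*Ppp3ca*, *Ppp3cb* and *Ppp3r1*), the calcineurin regulator *Rcan1*, and the calcineurin targets *Nfatc1* and *Nfatc3*. They are 10 of the 27179 genes listed in the count files, and all 10 were among the 16483 genes with enough counts to be tested. The set was chosen by name, and partly on the lower level of *Camk2b* in these same libraries. The differences between the groups below are therefore descriptions, and no p-value is printed for the 10 genes. Where it is said which of the 10 pass a threshold, nothing is read from it.

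Total RNA was sequenced from the quadriceps of 3 control mice (libraries B, C and D) and 3 miDrp1KO mice (libraries A, E and F), all fed normal chow. The miDrp1KO mice carried floxed *Dnm1l* and a tamoxifen-inducible Cre recombinase, HSA-MerCreMer, driven by the human skeletal actin (*ACTA1*) promoter. Control mice carried the floxed allele without Cre, and per the study's methods tamoxifen was given to both groups, at about 3 months of age, in male mice. Muscle was taken 3 weeks after deletion. Cre was thus present in the miDrp1KO mice alone, and effects of Cre together with tamoxifen cannot be told apart from those of the deletion. The promoter is active in muscle fibres, so vessels, nerve, fat and connective tissue in the sample keep intact *Dnm1l*. Nothing in the labels describes how the muscles were pooled or paired, so each library was taken as 1 sample, and the spread is that between these samples.

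CaMKII is a multisubunit kinase that Ca2+-bound calmodulin switches on, and its autophosphorylation lets it respond to the frequency of Ca2+ pulses. Calcineurin is a heterodimer of a catalytic A subunit and a Ca2+-binding B subunit. Once activated it dephosphorylates NFAT proteins, which then enter the nucleus, and in skeletal muscle this pathway is known for sustaining slow fibre genes. Both enzymes are also known to act on Drp1 itself, which calcineurin dephosphorylates.

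Each library held 13989588 to 62042255 counts. Ribosomal RNA genes and *Lars2*, known to collect ribosomal reads, received 4.5 to 18.6% of the counts in control and 1.75 to 30.1% in miDrp1KO libraries. *Dnm1l* was at 156, 114 and 140 CPM (read counts scaled to library size) in controls B, C and D and at 70.6, 81.3 and 66.2 CPM in miDrp1KO replicates A, E and F. Counts are over the whole gene and so include exons outside the floxed part. The log2 fold change was -0.91 (SE 0.18), with an adjusted p of 0.362 in edgeR's quasi-likelihood test and a p of 0.1 in a two-sided exact permutation test, the smallest that 3 against 3 libraries allow. The skeletal muscle markers summed to 249733 to 308981 CPM in control and 108657 to 234514 CPM in miDrp1KO libraries, so the tissue label holds in all 6. *Acta1*, skeletal actin, lay at 17030 to 17847 and 8245 to 14183 CPM.

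Promoter sequences were taken from RefSeq (GRCm38.p6) as the 250 bases before a gene's start. Windows of 6 of the 10 genes were read, with 8 starts. *Camk2g* and *Ppp3ca* had no matched entry, and *Camk2a* and *Nfatc1* were left out of the search. Of these windows, 3 are shown. They belong to the gene with the clearest separation of the groups and to both starts of *Rcan1*, whose internal start is a known NFAT target. In them a script capitalised GGAAA (the core of an NFAT motif, read on both strands as GGAAA or TTTCC), the cAMP response element TGACGTCA and the E-box CANNTG.
*Rcan1*, upstream start, chr16:92466170-92466419, minus strand: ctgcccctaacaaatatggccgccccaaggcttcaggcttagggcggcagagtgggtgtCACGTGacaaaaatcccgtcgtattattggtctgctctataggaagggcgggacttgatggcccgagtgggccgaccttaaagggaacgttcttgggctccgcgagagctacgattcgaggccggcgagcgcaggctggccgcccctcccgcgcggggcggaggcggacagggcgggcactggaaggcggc
*Rcan1*, internal start, chr16:92400079-92400328, minus strand: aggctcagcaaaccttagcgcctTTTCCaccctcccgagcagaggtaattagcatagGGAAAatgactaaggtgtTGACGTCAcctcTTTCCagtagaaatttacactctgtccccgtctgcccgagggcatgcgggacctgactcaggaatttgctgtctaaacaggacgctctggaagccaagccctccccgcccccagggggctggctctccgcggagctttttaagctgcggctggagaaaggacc
*Camk2b*, chr11:6065749-6065998, minus strand: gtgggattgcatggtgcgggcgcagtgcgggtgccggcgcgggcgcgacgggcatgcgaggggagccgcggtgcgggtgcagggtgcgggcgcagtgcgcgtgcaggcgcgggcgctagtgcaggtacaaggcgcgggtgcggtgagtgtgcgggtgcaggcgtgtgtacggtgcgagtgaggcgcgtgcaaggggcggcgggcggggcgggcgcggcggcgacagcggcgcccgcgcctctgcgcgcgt
The internal *Rcan1* window held 3 GGAAA matches, 1 TGACGTCA and no CANNTG, the upstream *Rcan1* window held 1 CANNTG and neither of the others, and the *Camk2b* window held none of the 3 motifs. No match overlapped another. Of the 32851 promoter windows of that length that were read, 55.6% held at least 1 GGAAA and 6.39% held 3 or more. TGACGTCA was in 1.55% and CANNTG in 66.2%. A match is a run of letters and not a measured binding site. *Ppp3cb* also held 3 GGAAA matches, *Camk2d* held 1, *Ppp3r1* none, and the *Nfatc3* windows 1 and none. The deposited counts are per gene, so transcripts from the *Rcan1* starts were not separated.

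Among the CaMKII genes, *Camk2b* was the one whose groups did not overlap. *Camk2b* (chr11:5969629-6066357 on GRCm38.p6, minus strand), the beta subunit, which binds actin, was at 82.0, 78.6 and 85.1 CPM in controls B, C and D and at 53.9, 40.1 and 44.4 CPM in miDrp1KO replicates A, E and F. Every miDrp1KO library lay below every control library, as for 10.3% of all tested genes. The control libraries differed among themselves by a factor of 1.08. The mean was 81.9 ± 3.23 CPM in control and 46.2 ± 7.05 CPM in miDrp1KO muscle (SD, n = 3 each), that is 56.4% of the control mean. The log2 fold change was -0.83 (SE 0.17), which is lower than that of all but 1.11% of the tested genes. Over the 15 alternative fits it stayed between -0.93 and -0.74. The set was partly chosen on this lower level, so nothing is read from the separation, the rank or the range over fits.

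*Camk2a* encodes the alpha subunit, and in muscle also alphaKAP, a membrane anchor without kinase activity from the same gene, which gene counts do not separate. It was at 121, 154 and 149 CPM in controls B, C and D and at 145, 88.0 and 92.8 CPM in miDrp1KO replicates A, E and F. Replicates E and F lay below every control library, while replicate A lay within the control range, so the groups overlapped. The log2 fold change was -0.38 (SE 0.22). It was -0.62 without replicate A, -0.25 without replicate E and -0.26 without replicate F. *Camk2g*, the gamma subunit, had the same arrangement, with 163, 204 and 191 CPM in control and 167, 123 and 147 CPM in miDrp1KO muscle, and a log2 fold change of -0.35 (SE 0.19). *Camk2d*, the delta subunit, best known from the heart, differed least of the 4, with 46.7, 51.7 and 53.5 CPM in control and 50.3, 42.8 and 43.3 CPM in miDrp1KO muscle. Its log2 fold change was -0.16 (SE 0.15), and -0.10 without control replicate D or without miDrp1KO replicate F.

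**Figure D1:**
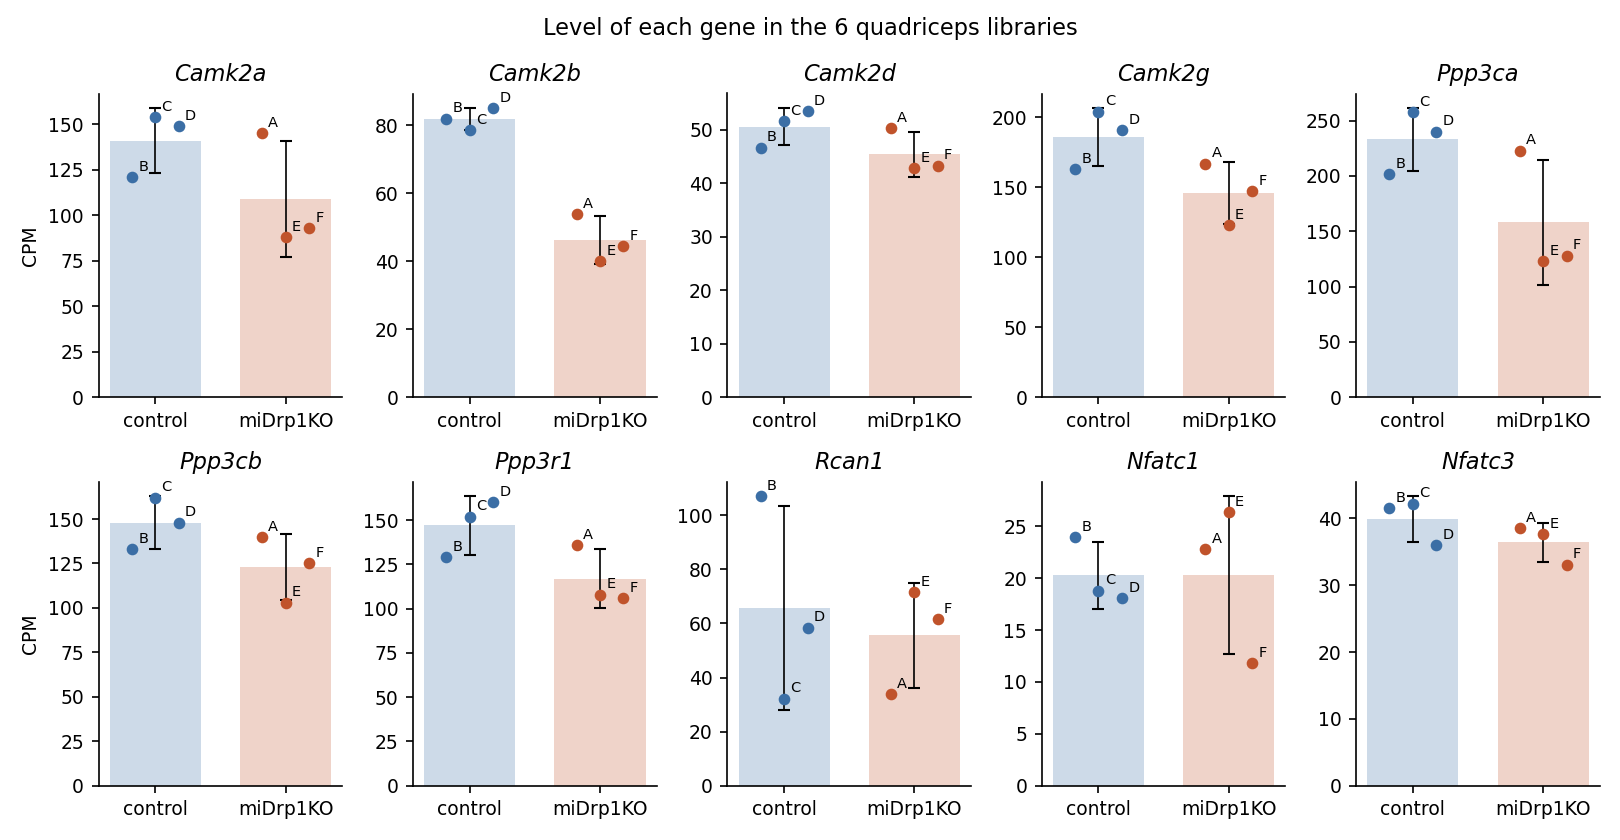
Level of each of the 10 genes in CPM (vertical axes, linear from 0) in control (blue, B, C, D) and miDrp1KO (orange, A, E, F) libraries. Points are libraries, bars are means and error bars are SD (n = 3). The groups are apart for *Camk2b* alone, where the miDrp1KO libraries sit at 40.1 to 53.9 CPM and the controls at 78.6 to 85.1 CPM.

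Levels were compared between genes per kilobase of annotated exons. On that scale *Camk2g* was the most abundant CaMKII transcript, at 29.1 ± 3.23 CPM per kb in control muscle, followed by *Camk2a* at 18.9 ± 2.39, *Camk2b* at 8.98 ± 0.354 and *Camk2d* at 2.25 ± 0.156 CPM per kb. The steps between these neighbours exceeded their SDs, and the order was the same in all 6 libraries. Summed over the 4 genes, the level was 52.8, 63.4 and 61.5 CPM per kb in controls B, C and D and 53.7, 37.3 and 42.2 CPM per kb in miDrp1KO replicates A, E and F. Replicate A thus lay just above the lowest control, so the sums overlapped.

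The shares of the family restate the levels above, with *Camk2b* the gene on which the set was partly chosen. *Camk2b* made up 17.0, 13.6 and 15.2% of CaMKII counts per length in controls B, C and D and 11.0, 11.8 and 11.5% in miDrp1KO replicates A, E and F, with no overlap. The mean share was 15.3 ± 1.72% in control and 11.4 ± 0.400% in miDrp1KO muscle. The share of *Camk2d* was higher in every miDrp1KO library, at 4.16 to 5.10% against 3.63 to 3.94%, while its own level was not higher (log2 fold change -0.16, groups overlapping). Those of *Camk2a* (31.9 ± 1.04% and 32.4 ± 3.48%) and *Camk2g* (49.0 ± 1.01% and 51.5 ± 2.94%) overlapped. Shares depend on the length assigned to each gene, and *Camk2d* has 22493 bases of annotated exons against 6401 for *Camk2g*. With the median length of coding transcripts the *Camk2b* share was 11.1% in control and 8.23% in miDrp1KO muscle, and with raw counts 17.9 and 13.4%. Shares use the same libraries as the levels and are not separate evidence.

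**Figure D2:**
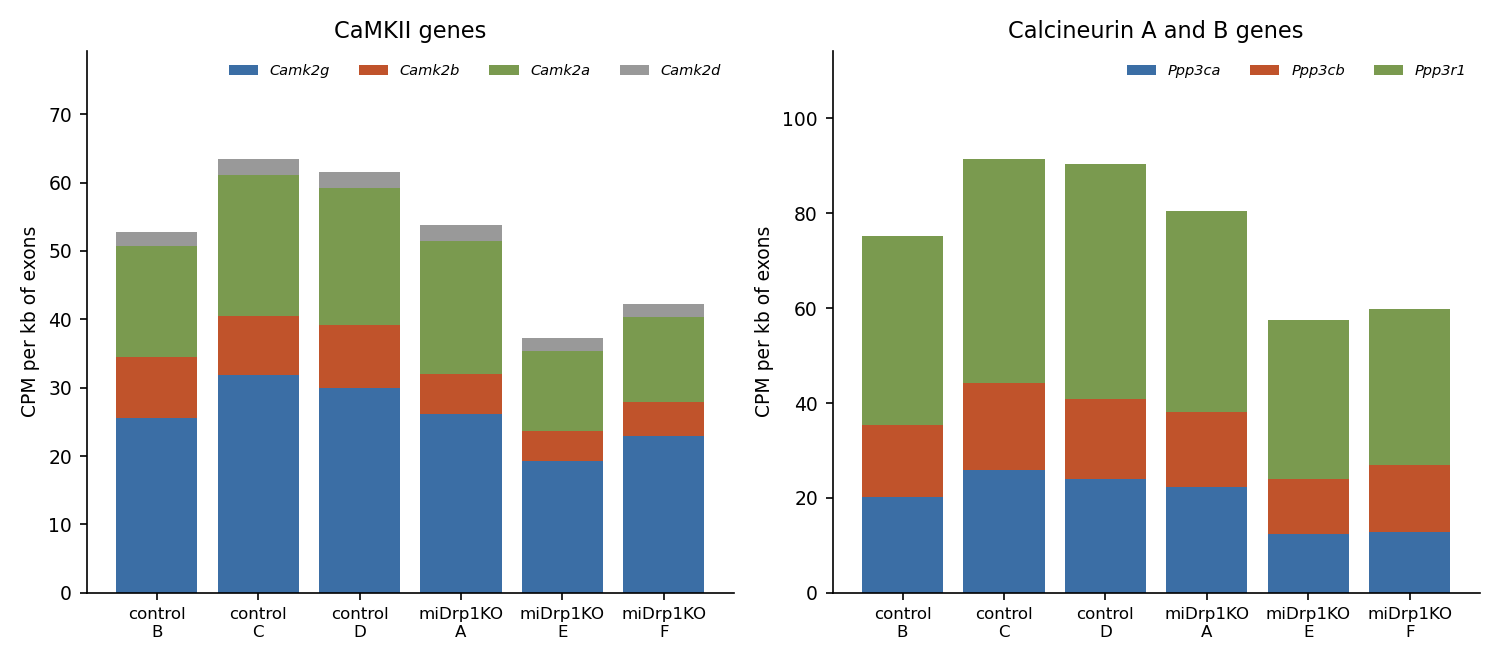
Summed level in CPM per kb of annotated exons (vertical axes) of the CaMKII genes (left) and of the calcineurin genes *Ppp3ca*, *Ppp3cb* and *Ppp3r1* (right), stacked by gene, for each library (horizontal axes). The CaMKII stacks of miDrp1KO replicates E and F reach 37.3 and 42.2 CPM per kb, below the controls at 52.8 to 63.4, and that of replicate A reaches 53.7.

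The calcineurin genes repeated the arrangement of *Camk2a*. *Ppp3ca*, the most abundant catalytic A subunit per kilobase in control muscle, was at 202, 258 and 240 CPM in controls B, C and D and at 223, 123 and 128 CPM in miDrp1KO replicates A, E and F. Replicate A stood at 95.6% of the control mean and replicates E and F at 52.8 and 55.0%. The log2 fold change was -0.56 (SE 0.25). It was -0.87 without replicate A, and -0.41 without replicate E or without replicate F. *Ppp3cb*, the second catalytic subunit, was at 133, 162 and 148 CPM in control and 140, 103 and 125 CPM in miDrp1KO libraries. Its log2 fold change was -0.26 (SE 0.18), and -0.15 without replicate E. *Ppp3r1*, the regulatory B subunit, was at 129, 152 and 160 CPM and at 136, 108 and 106 CPM, with a log2 fold change of -0.33 (SE 0.18). For both, replicates E and F were below every control and replicate A was within the control range. An exon of *Ppp3r1* overlaps one of *Wdr92* on the same strand, and *Wdr92* lay at 9.62 to 12.4 CPM over all 6 libraries.

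Per kilobase, *Ppp3r1* was the highest of the calcineurin genes in control muscle at 45.5 ± 5.07 CPM per kb. *Ppp3ca* followed at 23.3 ± 2.85 and *Ppp3cb* at 16.8 ± 1.67 CPM per kb. Among the catalytic genes, *Ppp3ca* made up 46.2, 49.2 and 48.3% of the counts per length in controls B, C and D and 49.5, 39.5 and 34.7% in miDrp1KO replicates A, E and F. In replicate F *Ppp3cb* had the larger share, at 38.5%, but by counts not divided by length *Ppp3ca* did, at 45.2 against 44.3%. *Ppp3cc*, the third catalytic gene, was at 24.4 to 26.8 CPM in control and 20.5 to 29.7 CPM in miDrp1KO libraries, with a log2 fold change of -0.10 (SE 0.18, edgeR adjusted p = 0.868).

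*Rcan1* (chr16:92391951-92466169 on GRCm38.p6, minus strand), which binds and inhibits calcineurin, varied more between the control libraries than any other of the 10 genes. It was at 107, 32.2 and 58.5 CPM in controls B, C and D and at 33.9, 71.5 and 61.5 CPM in miDrp1KO replicates A, E and F. The control libraries alone spanned a factor of 3.31. Its biological coefficient of variation, the spread between replicates beyond counting error, was 0.420, above that of 90.8% of the tested genes. The counts behind these values ran from 442 to 3511. The log2 fold change was -0.24 (SE 0.49), and its sign depended on single libraries, being 0.31 without control replicate B and 0.04 without miDrp1KO replicate A. A difference between the groups was therefore not detectable for *Rcan1* at this spread.

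The libraries rich in *Rcan1* were those rich in slow fibre transcripts. The slow fibre score, the mean log2 CPM of 17 slow fibre genes minus that of 16 fast fibre genes, was -6.11, -9.34 and -8.27 in controls B, C and D and -8.30, -5.17 and -5.50 in miDrp1KO replicates A, E and F. Replicates B, E and F held the 3 highest values of both *Rcan1* and the score, and D, A and C followed in that order in both. *Myh7*, the slow myosin heavy chain, was at 95.7, 174 and 89.6 CPM in B, E and F and at 2.48 to 13.4 CPM in the others. *Rcan2*, the paralogue that also binds calcineurin, was at 85.9, 45.4 and 66.8 CPM in controls B, C and D and at 34.4, 67.8 and 58.9 CPM in miDrp1KO replicates A, E and F. It had a log2 fold change of -0.30 (SE 0.29, edgeR adjusted p = 0.746). The order is a description over 6 libraries and the part of fibre make-up in it was not tested.

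With the score in the model as a covariate, log2 fold changes of most of the 10 genes were nearer to 0. That of *Camk2a* was -0.13, that of *Camk2d* -0.06 and that of *Camk2g* -0.19. Those of the calcineurin genes *Ppp3ca*, *Ppp3cb* and *Ppp3r1* were -0.30, -0.11 and -0.18. *Camk2b* was at -0.75, *Nfatc3* at -0.11 and *Nfatc1* at -0.03, while that of *Rcan1* was farther from 0, at -0.81. The lowest *Camk2b* levels were in E and F (40.1 and 44.4 CPM), the libraries with the highest scores, and within the controls *Camk2b* was at 82.0 CPM in B, 78.6 CPM in C and 85.1 CPM in D. Of the 16 fast fibre genes in the score, 15 had a negative log2 fold change, so the score carries part of the group difference. These fits cannot separate fibre make-up from the deletion, and its part in the values was not tested.

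**Figure D3:**
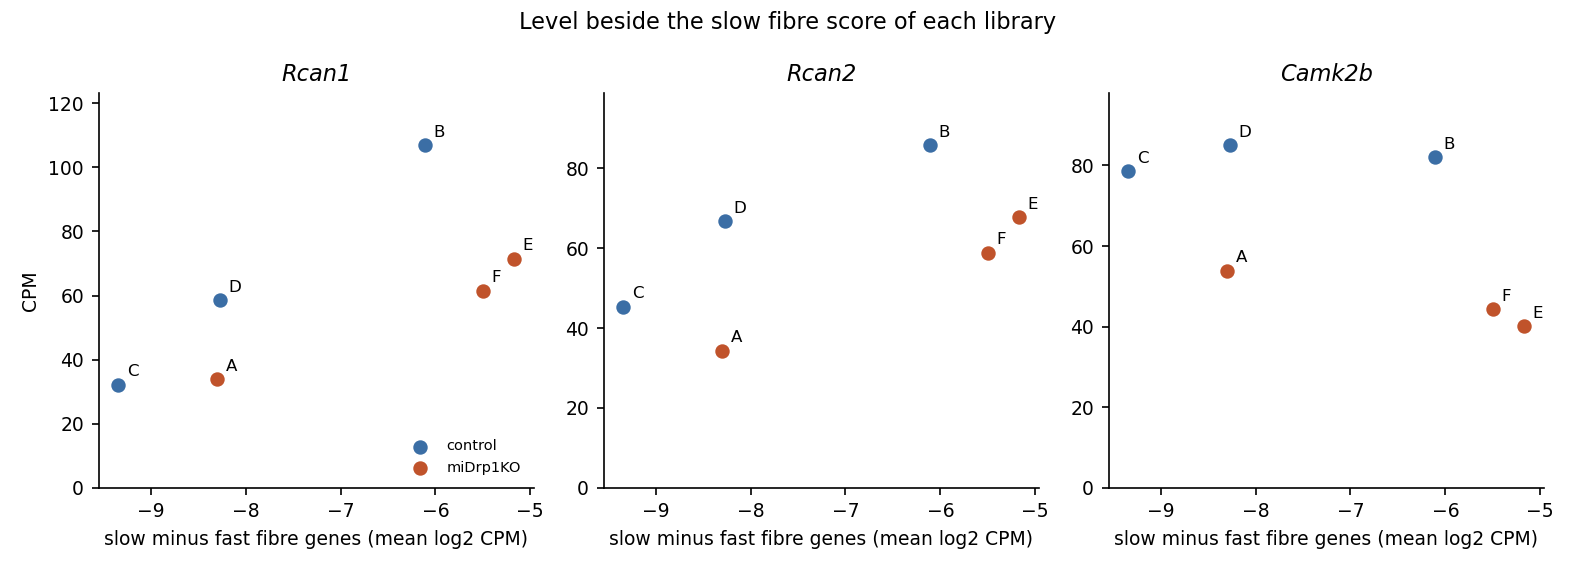
CPM of *Rcan1*, *Rcan2* and *Camk2b* (vertical axes, from 0) beside the slow fibre score of each library (horizontal axes, difference of mean log2 CPM), control in blue and miDrp1KO in orange. For *Rcan1*, B (107), E (71.5) and F (61.5) lie at the high scores and C (32.2), A (33.9) and D (58.5) at the low ones, with D close to F in level. The *Camk2b* groups are apart, and E and F are lowest.

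*Nfatc1* and *Nfatc3* encode transcription factors that calcineurin sends to the nucleus, and per kilobase they were less abundant than any calcineurin gene above. *Nfatc1* was at 24.0, 18.8 and 18.1 CPM in controls B, C and D and at 22.8, 26.4 and 11.8 CPM in miDrp1KO replicates A, E and F. The miDrp1KO libraries held both the highest and the lowest value, and the log2 fold change was 0.01 (SE 0.27), negative in 6 and positive in 9 of the 15 alternative fits. *Nfatc3* was at 41.6, 42.2 and 36.0 CPM and at 38.6, 37.7 and 33.1 CPM, with overlapping groups. Its log2 fold change was -0.13 (SE 0.15), and -0.05 without miDrp1KO replicate F. Exons of *Nfatc3* overlap those of *Esrp2* on the other strand, and *Esrp2* did not exceed 1.30 CPM.

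Per kilobase, *Nfatc3* lay at 3.07 to 3.60 and *Nfatc1* at 2.42 to 3.21 CPM per kb in control muscle, ranges that overlap. Of the other family members, *Nfatc2* lay at 6.16 to 8.60 CPM in control and 7.34 to 8.85 CPM in miDrp1KO libraries (log2 fold change 0.21, SE 0.20, edgeR adjusted p = 0.730). *Nfatc4* lay at 3.50 to 4.36 and 3.26 to 6.50 CPM (log2 fold change 0.38, SE 0.27, edgeR adjusted p = 0.628). *Nfat5*, which responds to osmotic stress and not to calcineurin, lay at 54.9 to 72.7 and 60.6 to 86.7 CPM (log2 fold change 0.13, SE 0.19, edgeR adjusted p = 0.833). No member of the family had groups that were apart.

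As a list, 9 of the 10 genes had a negative log2 fold change and 1 a positive one. The median was -0.30, beside 0.02 over all tested genes. In edgeR's quasi-likelihood test none of the 10 passed an adjusted p of 0.05, where 0.0121% of all tested genes passed. At an unadjusted p under 0.05, 2 of the 10 passed, *Camk2b* and *Ppp3ca*, both lower, where 10.9% of all tested genes passed and 6.22% passed as lower. DESeq2 called 1 of the 9 genes to which it gave an adjusted p, *Camk2b*, and 2.34% of all 4018 genes given one, while limma voom called none of the 10 and 0.00607% overall. The groups did not overlap, with miDrp1KO lower, for 1 of the 10 genes and for 10.3% of all tested genes. Since the set was partly chosen on this contrast, nothing is read from these counts.

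Replicate A stood nearer to the controls than E and F did for most of the 10 genes. In 7 of the 10 genes (all but *Rcan1*, *Nfatc1* and *Nfatc3*) replicates E and F lay below every control library, and in 6 of these 7 replicate A did not. Over all tested genes the shares were 20.4 and 10.1%. The libraries were singled out after their values were seen and the set was partly chosen on this contrast, so nothing is read from these counts. In replicate A the skeletal muscle markers summed to 234514 CPM, against 141386 CPM in E and 108657 CPM in F. Of those 10 markers, 9 had a negative log2 fold change and their median was -0.55. At an unadjusted p under 0.05 in edgeR 2 were lower (*Myh4* and *Ryr1*), against 6.22% of all tested genes, and in 4 every miDrp1KO library lay below every control, against 10.3%. Fewer fibres and less of these RNAs per fibre cannot be told apart in whole muscle, and the part of the muscle marker level in the lower values of the 10 genes was not tested. The share of ribosomal RNA and *Lars2* was high in A and F (27.6 and 30.1%) and low in E (1.75%). With that share as a covariate the log2 fold changes of *Camk2a*, *Camk2b*, *Camk2g*, *Ppp3ca* and *Ppp3cb* were farther from 0, at -0.47, -0.90, -0.43, -0.67 and -0.35. Those of *Camk2d* (-0.17), *Ppp3r1* (-0.33), *Rcan1* (-0.23) and *Nfatc3* (-0.13) differed from the values above by at most 0.01, and *Nfatc1* was at 0.10.

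**Figure D4:**
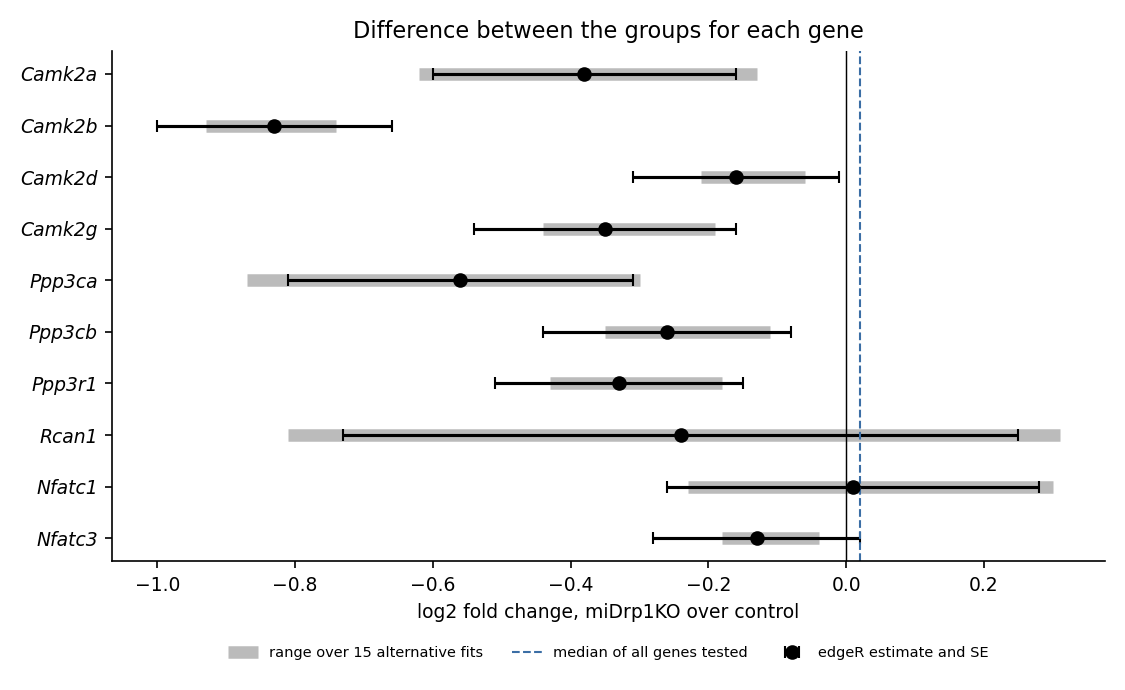
Log2 fold change of miDrp1KO over control (horizontal axis) for each of the 10 genes, with SE (points and lines) and the range over 15 alternative fits (grey). The dashed line is the median of all tested genes, 0.02. *Camk2b* is farthest from 0 at -0.83, and the grey ranges of *Rcan1* and *Nfatc1* cross 0.

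The genes whose log2 CPM followed that of *Camk2b* most closely over the 6 libraries were sought among 7205 tested genes with a mean of at least 10 CPM. Among the 5 with the highest correlation were *Psmd2* (Pearson's r = 0.994), a proteasome subunit, *Dnajc21* (0.994), a ribosome assembly cochaperone, *Agtpbp1* (0.993), a tubulin deglutamylase, and *Adi1* (0.993), of the methionine salvage pathway. *Psmd2* was at 183, 193 and 198 CPM in controls B, C and D and at 139, 106 and 114 CPM in miDrp1KO replicates A, E and F, with every miDrp1KO library below the controls. These correlations share the same 6 libraries in 2 groups, were the highest of many and carry no test. For *Dnm1l* r was 0.89, for *Ppp3ca* 0.86, for the other CaMKII genes 0.78 to 0.85, for *Nfatc3* 0.54, for *Nfatc1* 0.08 and for *Rcan1* -0.01.

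The gene lists from here on were chosen with earlier results of these data known, and some share genes, so counts over them are descriptions. The other calmodulin-dependent kinases and their inhibitors were mixed. None of the 17 tested genes of that list passed an adjusted p of 0.05 in edgeR, DESeq2 or limma voom, and at an unadjusted p under 0.05 in edgeR 1 was higher (4.68% of all tested genes were) and 2 were lower (6.22% of all tested genes were). The higher one was *Camk2n1*, an endogenous inhibitor protein of CaMKII. It was at 3.03, 2.84 and 2.72 CPM in controls B, C and D and at 4.71, 4.93 and 4.32 CPM in miDrp1KO replicates A, E and F, with all 3 miDrp1KO libraries above the controls. Its log2 fold change was 0.71 (SE 0.22, edgeR adjusted p = 0.379). *Camk2n2*, its paralogue, was too low to be tested, at 0.192 to 0.389 CPM. Named after their values were seen, *Camk1d* and the CaM kinase kinase *Camkk2* were the others with higher, non-overlapping groups (log2 fold changes of 0.44 and 0.42, SE 0.21 each, edgeR adjusted p = 0.472 and 0.505), and groups were so arranged for 7.67% of all tested genes. The lower ones, likewise named afterwards, were the myosin light chain kinase *Mylk2* (-0.61, SE 0.27, edgeR adjusted p = 0.451) and the elongation factor 2 kinase *Eef2k* (-0.51, SE 0.23, edgeR adjusted p = 0.446).

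None of the 11 tested calmodulin and calcium sensor genes passed an adjusted p of 0.05 in edgeR, DESeq2 or limma voom. *S100a1*, a Ca2+-binding protein of the sarcoplasmic reticulum named after its values were seen, was the 1 gene of the list under an unadjusted p of 0.05, as higher, against 4.68% of all tested genes (log2 fold change 0.46, SE 0.21, edgeR adjusted p = 0.459). Of 20 calcineurin partners, none passed an adjusted p of 0.05 with any of the 3 tools and 1 was lower at an unadjusted p under 0.05 (6.22% of all tested genes were), *Myoz3*, a fast fibre protein of the Z disc that binds calcineurin. It was at 90.6, 94.2 and 99.5 CPM in control and 89.1, 51.5 and 51.2 CPM in miDrp1KO libraries (log2 fold change -0.57, SE 0.22, edgeR adjusted p = 0.410). As with *Ppp3ca*, replicate A was close to the controls.

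Of the NFAT family and the kinases that return NFAT to the cytoplasm, 12 of 17 tested genes had a negative log2 fold change, with a median of -0.14. None passed an adjusted p of 0.05 with any of the 3 tools, and 4 were lower and none higher at an unadjusted p under 0.05 in edgeR. Over all tested genes 6.22% were lower by that measure. These 4 were kinases of NFAT, named by a rule that asks for groups without overlap, an arrangement that 10.3% of all tested genes had with miDrp1KO lower. *Dyrk1a* was at 186, 156 and 174 CPM in controls B, C and D and at 149, 114 and 84.9 CPM in miDrp1KO replicates A, E and F (log2 fold change -0.57, SE 0.22, edgeR adjusted p = 0.402). *Mapk14*, the p38 alpha kinase, was at 86.2, 75.2 and 78.5 CPM and at 64.4, 45.4 and 46.1 CPM (log2 fold change -0.62, SE 0.18, edgeR adjusted p = 0.379). *Gsk3a* and *Mapk9* had log2 fold changes of -0.50 (SE 0.19) and -0.48 (SE 0.17), with edgeR adjusted p of 0.393 and 0.392.

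MEF2 factors and the class IIa histone deacetylases that hold them in check are targets of CaMKII in muscle. Of 14 tested genes of that list, 11 had a negative log2 fold change (median -0.15), none passed an adjusted p of 0.05 with any of the 3 tools, and 3 were lower (6.22% of all tested genes were) and none higher at an unadjusted p under 0.05 in edgeR. *Hdac4*, the deacetylase that CaMKII exports from the nucleus, was at 31.3, 46.1 and 37.2 CPM in controls B, C and D and at 29.2, 22.0 and 15.6 CPM in miDrp1KO replicates A, E and F (log2 fold change -0.78, SE 0.23, edgeR adjusted p = 0.379). *Sik2*, a kinase of class IIa deacetylases, was at 17.1, 19.2 and 20.4 CPM and at 13.5, 11.1 and 12.2 CPM (log2 fold change -0.63, SE 0.16, edgeR adjusted p = 0.362). *Mef2d* had a log2 fold change of -0.62 (SE 0.24, edgeR adjusted p = 0.407). The naming rule asked for groups without overlap in all 3 genes, and the backgrounds of 6.22 and 10.3% given for the NFAT kinases apply here too.

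The genes that supply the Ca2+ signal included the lowest log2 fold change of all these lists, that of *Ryr1*. In edgeR none of the 25 genes of calcium entry and release passed an adjusted p of 0.05, 7 were lower and 1 was higher at an unadjusted p under 0.05 (6.22 and 4.68% of all tested genes), and DESeq2 called 2, *Ryr1* and *Cacna1s* (2.34% of all genes it gave an adjusted p), whereas limma voom called none. *Ryr1*, the calcium release channel of the sarcoplasmic reticulum, was at 2535, 2346 and 2216 CPM in controls B, C and D and at 1475, 967 and 414 CPM in miDrp1KO replicates A, E and F (log2 fold change -1.31, SE 0.39, edgeR adjusted p = 0.379). *Cacna1s*, the voltage sensor that opens it, was at 1394, 1324 and 1195 CPM and at 957, 509 and 340 CPM (log2 fold change -1.12, SE 0.34, edgeR adjusted p = 0.379). In both, all miDrp1KO libraries were below the controls, as for 10.3% of all tested genes, and replicate A was the nearest to them. The naming rule asked for groups without overlap in both, and in the genes of the next sentence. *Casq1*, which stores Ca2+ in the reticulum, *Atp2a1*, the fast calcium pump, and *Cacnb1*, a subunit of the voltage sensor, had log2 fold changes of -0.72 (SE 0.25), -0.64 (SE 0.29) and -0.52 (SE 0.18), with edgeR adjusted p of 0.392, 0.458 and 0.386. Named after their values were seen, the store sensors *Stim1* (-0.40, SE 0.18, edgeR adjusted p = 0.446) and *Stim2* (-0.57, SE 0.25, edgeR adjusted p = 0.446) were lower and *Ryr2*, the cardiac release channel, was higher at 1.17 to 1.75 CPM in control and 1.56 to 3.65 CPM in miDrp1KO libraries (0.90, SE 0.36, edgeR adjusted p = 0.416), all 3 with overlapping groups.

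**Figure D5:**
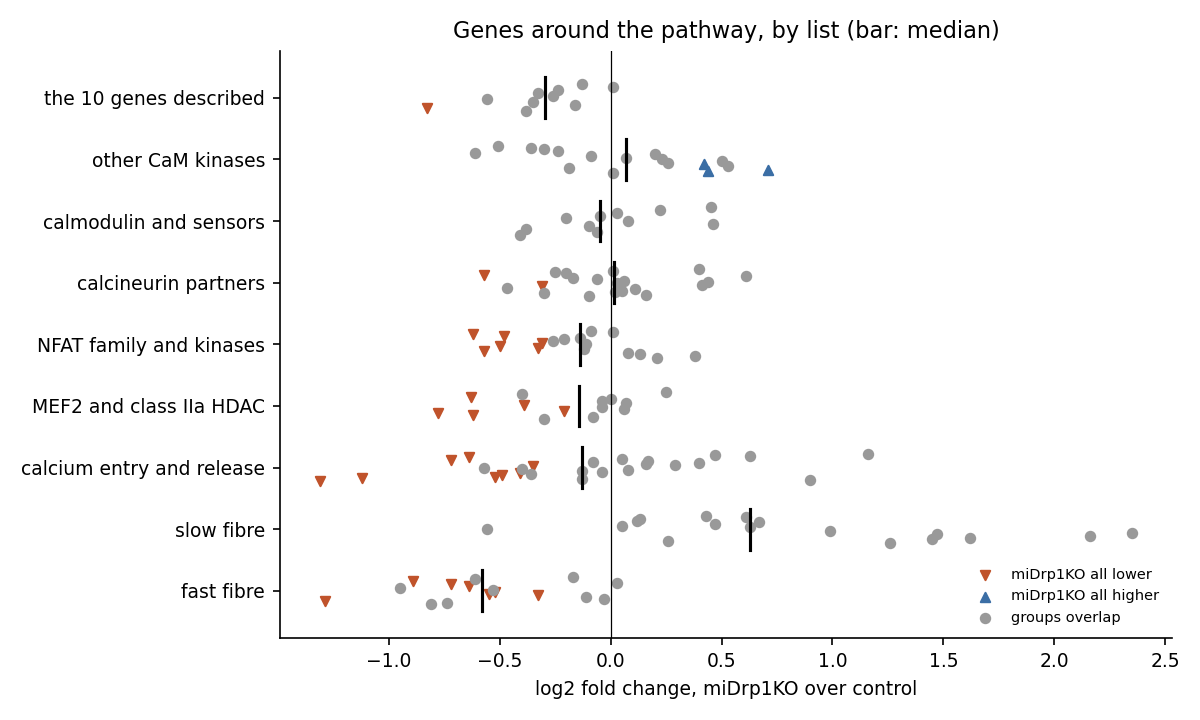
Log2 fold change of miDrp1KO over control (horizontal axis) for each tested gene of the lists around the pathway (rows), with a bar at each list's median. Triangles mark genes whose groups do not overlap. *Ryr1* (-1.31) and *Cacna1s* (-1.12) lie farthest left in calcium entry and release, and the 3 upward triangles are *Camk2n1*, *Camk1d* and *Camkk2*.

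Slow fibre genes, the known programme of calcineurin and NFAT, had a positive log2 fold change in 16 of 17 cases (median 0.63), but none passed an adjusted p of 0.05 with any of the 3 tools or an unadjusted p of 0.05 in edgeR, and no gene of the list had groups that were apart. The median was 1.60 without control replicate B, 1.04 without miDrp1KO replicate A, and 0.37 without control replicate C or without miDrp1KO replicate E. It was -0.35 with the slow fibre score, which is computed from these genes, as covariate. For *Myh7* the log2 fold change was 1.26 with an SE of 1.82 (edgeR adjusted p = 0.844). Of 16 fast fibre genes 15 had a negative log2 fold change (median -0.58). At an unadjusted p under 0.05 in edgeR 6 were lower (6.22% of all tested genes). Those 6 include *Casq1* and *Atp2a1*, also counted in calcium entry and release, and *Mylk2*, also counted among the other CaM kinases. No fast fibre gene passed the adjusted threshold in edgeR or limma voom, and DESeq2 called 2, *Myh4* and *Pygm* (2.34% of all genes it gave an adjusted p). *Myh4*, the fast IIb myosin heavy chain, was at 49885, 58256 and 62914 CPM in controls B, C and D and at 40363, 17190 and 12241 CPM in miDrp1KO replicates A, E and F (log2 fold change -1.29, SE 0.47, edgeR adjusted p = 0.392). *Pygm*, muscle glycogen phosphorylase, had a log2 fold change of -0.89 (SE 0.29, edgeR adjusted p = 0.382), and *Myh2*, the IIa myosin, one of -0.74 (SE 0.39, edgeR adjusted p = 0.523). As for *Ppp3ca* and *Camk2a*, replicate A had the highest *Myh4* of the miDrp1KO libraries.

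Markers of other cell types were low beside those of muscle. The neuronal list, which bears on *Camk2a* and *Camk2b* as genes abundant in brain, summed to at most 11.7 CPM in control and 10.1 to 16.5 CPM in miDrp1KO libraries, and the Schwann cell list to 40.0 to 57.4 and 43.9 to 76.5 CPM. The T lymphocyte list, which bears on *Nfatc1*, summed to 4.74 to 6.53 and 4.33 to 7.39 CPM, with *Cd3d*, *Cd3g* and *Trac* at 0 in at least 1 library. The adipose list was lower in every miDrp1KO library (1010 to 1296 and 574 to 893 CPM). Of its 10 genes, 5 were lower at an unadjusted p under 0.05 in edgeR (6.22% of all tested genes). DESeq2 called 1, *Adipoq* (2.34% of all genes it gave an adjusted p). The endothelial (204 to 370 and 222 to 330 CPM), macrophage (138 to 236 and 175 to 212 CPM), fibroblast (1543 to 2095 and 1680 to 2850 CPM) and smooth muscle lists (2497 to 2803 and 1882 to 2768 CPM) overlapped in their sums. Of the 10 macrophage genes, 3 were higher at an unadjusted p under 0.05 in edgeR (4.68% of all tested genes) and 3 had higher, non-overlapping groups (7.67% of all tested genes), and no gene of the endothelial, fibroblast or smooth muscle lists passed that p. The part of any of these cell types in the levels of the 10 genes was not tested.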

How the data were processed

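Total RNA of quadriceps muscle from 3 control and 3 miDrp1KO mice was sequenced by the authors after ribosomal RNA depletion with a stranded kit, in pools whose members are not given in the sources used here. Per the study's methods, reads were aligned to GRCm38 and counted with Rsubread. FastQC and DESeq2 1.30.0 are named in the submitters' processing notes. What the authors deposited are raw counts by gene for each library, without normalization.

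Counts were analysed in R 4.3.3 with edgeR 4.0.16 (TMM, filterByExpr by group, glmQLFit with robust estimation, p adjusted by Benjamini-Hochberg over 16483 genes, threshold 0.05). CPM use TMM library sizes. Fold changes are log2 and from that fit. Libraries of 13989588 to 62042255 counts give each of the 10 genes at least 246 counts per library, so spread between libraries (common biological coefficient of variation 0.252) and not counting limits precision. Gene lengths are unions of GENCODE exons on GRCm38, and positions are from RefSeq GRCm38.p6. The fits were tested on simulated data.

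Alternatives were DESeq2 1.42.0, limma voom (3.58.1), RLE and upper quartile factors, no filter, at least 10 counts in every library, counts without 32 ribosomal RNA genes and *Lars2* together, a covariate (ribosomal share or slow fibre score), each library left out in turn, an unadjusted threshold, raw counts for shares and, added after the data were seen, coding transcript lengths for shares. The 10 genes and the gene lists were chosen with earlier results of these data known. Named genes were the 10, *Dnm1l*, 9 related genes whatever their values (*Ppp3cc*, *Rcan2*, *Nfatc2*, *Nfatc4*, *Nfat5*, *Camk2n1*, *Camk2n2*, *Myh7* and *Myh2*), up to 6 per list with a mean of at least 1 CPM, an unadjusted p under 0.05 and no overlap between groups, and the 5 genes most like *Camk2b*, of which 1 is not reported here. All other genes, among them *Acta1*, *Adipoq*, *Camk1d*, *Camkk2*, *Eef2k*, *Mylk2*, *Ryr2*, *S100a1*, *Stim1*, *Stim2*, *Cd3d*, *Cd3g*, *Trac*, *Wdr92* and *Esrp2*, were named outside that rule, after their values were seen.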

Additional observations from a re-analysis of the deposited data

How the results depend on the processing

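Over the 15 alternative fits the log2 fold change stayed negative for *Camk2a*, *Camk2b*, *Camk2d*, *Camk2g*, *Ppp3ca*, *Ppp3cb*, *Ppp3r1* and *Nfatc3*, and took both signs for *Rcan1* (-0.81 to 0.31) and *Nfatc1* (-0.23 to 0.30). All 10 moved by less than the SD between replicates in those fits. Upper quartile factors and no filter each put the median of all tested genes at 0.11. The number of the 10 genes called was 0 in edgeR, 1 with DESeq2 and 2 at an unadjusted p under 0.05, and 0 in each fit without 1 library.

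Genes called overall numbered 2 (1 higher, 1 lower). They numbered 94 with DESeq2 (20 higher, 74 lower), 1 with limma voom (0 lower), 8 with no filter on low counts (4 higher, 4 lower), 1 with the ribosomal share as a covariate (0 lower), 5 with slow fibre score as covariate (3 higher, 2 lower), and 1796 at an unadjusted p under 0.05 (771 higher, 1025 lower). Without 1 library they ranged from 1 (without replicate E or F) to 7 (without replicate A), with 1 higher and 0 to 6 lower.

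The medians of the lists of other CaM kinases, calcium sensors, calcium entry and release, and NFAT moved by more than the SD between replicates. That of other CaM kinases was 0.07, and -0.06 with the ribosomal share as a covariate. For calcium sensors it was -0.05, and -0.20 with that covariate. For calcium entry and release it was -0.13, and -0.23 with slow fibre score as covariate, a score that includes some genes of this list, among them *Casq1* and *Atp2a1*. Without 1 library these 3 medians ranged from 0.02 to 0.29 (highest without control replicate B), from -0.15 to 0.12 (highest, and positive, without miDrp1KO replicate E) and from -0.23 to -0.08 (lowest without control replicate C). The NFAT median was -0.14, and ranged from -0.28 to -0.04 without 1 library. It moved by more than that SD without miDrp1KO replicate A, where it was lowest. The slow fibre median (0.63) ranged from 0.37 to 1.60 without 1 library, and was -0.35 with slow fibre score as covariate. The cause was not tested. DESeq2 called 2 genes of calcium entry and release, 2 fast fibre genes and 1 mitochondrial fission gene (*Dnm1l*), and in the marker lists *Adipoq*, *Myh4* and *Ryr1*, against 0 in edgeR. Of all 4018 genes that DESeq2 gave an adjusted p, it called 2.34%.

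Shares of CaMKII counts in control and miDrp1KO muscle were 31.9 and 32.4% (*Camk2a*), 15.3 and 11.4% (*Camk2b*), 3.81 and 4.61% (*Camk2d*) and 49.0 and 51.5% (*Camk2g*). With raw counts they were 30.7 and 31.0%, 17.9 and 13.4%, 11.0 and 13.3%, and 40.4 and 42.3%, and with coding transcript lengths 27.0 and 27.1%, 11.1 and 8.23%, 3.23 and 3.85%, and 58.6 and 60.8%, as lengths set the levels. No paired analysis was possible because the library letters share no number between the groups.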
